A study of Mus musculus with 6 samples.

Results

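Of the 57203 open chromatin regions measured in lung group 2 innate lymphoid cells (ILC2s), 224 (0.392%) stood above naive cells during papain exposure and were still above them 2 months later. They were picked by a rule on CPM, a region's count scaled by the library's total over all regions. Both effector libraries and both memory libraries had to reach at least 1.5 times the higher naive library, with a mean of at least 5 CPM in effector and 3 CPM in memory cells. The effector part of the rule was met by 4044 regions (7.07% of all) and the memory part by 405 (0.708%). The 224 kept-open regions were 5.54% of the first set and 55.3% of the second. With no CPM minimum, 726 regions passed the fold limit upward and 96 passed the mirrored limit downward.

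The cells came from the lungs of wild-type mice, female unless otherwise stated, and were sorted as Lin-CD25+ST2+. Naive cells were taken after 3 days of PBS. Effector cells were taken after 3 days of papain, a protease allergen, at 30 µg per day, and memory cells after the same papain course and a further rest of 2 months. Each group had 2 ATAC-seq libraries, and each library was a pool of 2 to 4 mice and about 50000 cells. The ages of the mice were not given, and no library came from mice rested for 2 months after PBS, so past exposure and 2 months of further age cannot be told apart here. The sort used the same gate in every group and no mark of past activation, and in a bulk library a larger share of cells with an open region and more openness per cell cannot be told apart.

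ILC2s are tissue-resident lymphocytes that respond to alarmins such as IL-33, IL-25 and TSLP with type 2 cytokines, and papain in the airways releases IL-33. Lung ILC2s that have been activated can persist after the cytokine response has ended and respond more strongly to a later allergen, which is why they are called memory or trained ILC2s. ATAC-seq reads where the transposase Tn5 can enter chromatin: accessible enhancers and promoters give high counts, whether or not the nearby gene is transcribed at that time.

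Most kept-open regions lay away from gene starts. Among the 208 kept-open regions on chromosomes with a start table, 6 (2.88%) covered the annotated start of a gene, against 2.87% of the opened regions that were not kept and 17.2% of all regions. The start table held 17492 of the 21900 protein-coding genes, so starts of the other genes could not be counted. The sequences at those 6 starts are shown because sequence could be read from RefSeq (GRCm38.p6) around gene starts only. They are stretches around a start and not whole regions. The Cryaa stretch, for one, begins before its region, which starts at 31677805. Each stretch runs 5′ to 3′ on the gene's own strand, from 250 bases before to 50 bases after the start. The stretches are chr10:128989664-128989963 for Olfr9 (plus strand, an olfactory receptor gene), chr11:43901188-43901487 for Adra1b (minus strand, the alpha-1B adrenergic receptor) and chr12:105453606-105453905 for D430019H16Rik (plus strand). The others are chr15:83251680-83251979 for A4galt (minus strand, a galactosyltransferase of glycolipid synthesis), chr8:10006217-10006516 for Tnfsf13b (plus strand, encoding the B cell survival factor BAFF) and chr17:31677681-31677980 for Cryaa (plus strand, a small heat shock protein of the lens). Capitals mark matches to any of the 10 motifs searched.
Olfr9: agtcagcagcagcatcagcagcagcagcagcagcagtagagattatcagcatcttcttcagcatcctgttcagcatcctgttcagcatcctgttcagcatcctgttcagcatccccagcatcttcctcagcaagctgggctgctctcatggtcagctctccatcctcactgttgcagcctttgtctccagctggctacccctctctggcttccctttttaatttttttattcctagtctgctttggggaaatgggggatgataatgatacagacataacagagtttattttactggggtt
Adra1b: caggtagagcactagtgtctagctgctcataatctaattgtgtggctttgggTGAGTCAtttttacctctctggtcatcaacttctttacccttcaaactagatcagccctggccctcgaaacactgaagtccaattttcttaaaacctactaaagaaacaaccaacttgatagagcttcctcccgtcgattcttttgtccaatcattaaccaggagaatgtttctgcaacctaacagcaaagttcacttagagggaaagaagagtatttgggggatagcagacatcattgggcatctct
D430019H16Rik: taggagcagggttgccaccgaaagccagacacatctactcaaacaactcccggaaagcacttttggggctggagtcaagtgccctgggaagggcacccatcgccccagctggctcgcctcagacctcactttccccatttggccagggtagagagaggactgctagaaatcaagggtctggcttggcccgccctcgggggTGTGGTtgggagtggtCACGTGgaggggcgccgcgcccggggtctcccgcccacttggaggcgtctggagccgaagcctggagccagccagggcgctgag
A4galt: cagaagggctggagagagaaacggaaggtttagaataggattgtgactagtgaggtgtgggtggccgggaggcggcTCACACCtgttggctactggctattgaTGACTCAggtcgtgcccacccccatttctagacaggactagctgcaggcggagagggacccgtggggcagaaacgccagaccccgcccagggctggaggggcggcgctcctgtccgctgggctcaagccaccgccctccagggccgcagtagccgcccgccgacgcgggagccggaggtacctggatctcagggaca
Tnfsf13b: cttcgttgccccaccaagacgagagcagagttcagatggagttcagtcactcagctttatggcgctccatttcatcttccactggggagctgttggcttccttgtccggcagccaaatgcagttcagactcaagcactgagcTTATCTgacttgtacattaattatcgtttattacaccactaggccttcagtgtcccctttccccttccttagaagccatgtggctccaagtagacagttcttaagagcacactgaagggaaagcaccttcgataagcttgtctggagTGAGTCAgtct
Cryaa: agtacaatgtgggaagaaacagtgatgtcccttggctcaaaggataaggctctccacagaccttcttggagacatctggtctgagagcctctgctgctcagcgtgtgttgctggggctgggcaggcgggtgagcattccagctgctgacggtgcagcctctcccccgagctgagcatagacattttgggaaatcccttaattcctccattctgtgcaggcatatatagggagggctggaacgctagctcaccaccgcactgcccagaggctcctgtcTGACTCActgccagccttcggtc

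The letters TGANTCA, the AP-1 motif, which reads the same on both strands, occurred in 4 of these 6 genes' stretches (Adra1b, A4galt, Tnfsf13b and Cryaa). They occurred in 20.4% of the 108 genes whose start lay in a region opened in effector cells but not kept, and in 5.20% of the 10040 genes with a start in any region. A GATA motif (AGATAA) was found in 1 of the 6 genes (Tnfsf13b) against 6.54% of the 10040. A RUNX motif (TGTGGT) and an E-box (CACGTG) were each found in 1 gene (D430019H16Rik), against 13.3% and 11.5%, and a T-box motif (GGTGTGA) in 1 gene (A4galt), against 3.56%. None of the 6 held the letters AGGAAGT (ETS, 9.69% of the 10040), AGGTCA (nuclear receptors, 12.3%), TTCNNNGAA (STAT, 7.26%) or CTTTGAA (TCF, 3.71%). The form of the NF-kB motif that was searched, which allows 1 free base and does not cover all its known variants, was not found either (0.508% of the 10040). Both strands were searched and no marked matches overlapped. With 6 genes these are descriptions of the letters present.

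The regions at those starts were opened by different amounts. At Adra1b the 6 libraries held 3.32 and 6.74 CPM (naive), 12.1 and 11.2 CPM (effector) and 13.3 and 22.2 CPM (memory). Both memory libraries stood above both effector libraries there. At Tnfsf13b they held 4.17 and 3.43, then 11.9 and 11.3, then 6.34 and 7.58 CPM, and at Cryaa 2.70 and 2.96, then 11.8 and 8.66, then 5.09 and 4.81 CPM. In both of these the memory libraries lay between the other groups without overlap. A4galt (5.55 and 5.20, then 15.9 and 11.2, then 10.1 and 9.28 CPM) was of the same kind, whereas at Olfr9 (9.87 and 10.5, then 24.2 and 16.6, then 23.3 and 21.4 CPM) and D430019H16Rik (4.09 and 3.19, then 11.0 and 8.05, then 10.3 and 13.6 CPM) memory and effector libraries overlapped.

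Library totals over the regions ran from 11995095 (memory replicate 1) to 20591102 counts (memory replicate 2), and every kept-open region passed the low-count filter. The lowest naive total of a kept-open region was 19 counts over both libraries. All 12 ILC2 marker genes had regions, with a mean summed level of 348 to 427 CPM per gene in the 6 libraries, among them Gata3, Il7r, and the sorting markers Il1rl1 and Il2ra. Other lists held marker genes of lung structural cells, mast cells and basophils, myeloid cells, other ILCs and NK cells, and B and T cells. For these the mean over a list's genes with a region was 11.0 to 149 CPM in any library. Such sums depend on the number of regions, which was 172 for the ILC2 list and 10 for the T cell list. Cd8a, Trac, Ms4a1, Csf1r and Lyz2 had no region. The most counted regions of Cd3d (69.1 to 99.1 CPM) and Kit (74.0 to 109 CPM) stood near or above that of Il1rl1 (43.6 to 69.8 CPM). Single markers were higher in effector libraries: Itgam, the CD11b gene, held 1.62 and 1.77 CPM in naive, 10.4 and 7.68 CPM in effector and 1.5 and 2.38 CPM in memory libraries, and the B cell factor Pax5 held 9.41 and 9.70, then 16.1 and 16.5, then 7.25 and 6.07 CPM. At Itgam and Pax5 the memory libraries stood near or below the naive ones. Other genes of the myeloid and B cell lists were mixed. Itgax (0.154 and 0.0, then 1.21 and 1.22 CPM) and Ebf1 were higher in effector than in naive libraries. Cebpa overlapped, and Spi1 (12.6 and 13.4, then 12.2 and 11.0 CPM) and Cebpb (67.8 and 60.7, then 56.7 and 57.7 CPM) were lower. The mast cell and basophil markers Kit, Cpa3 and Ms4a2 were lower too. The part of such cells in the effector levels was not tested. None of these marker genes, and none of the ILC2 markers, was the nearest gene of a kept-open region. A kept-open region can still lie near such a gene. The one at chr15:9569457-9570671, assigned to Spef2, had Il7r as the closest start in the start table, 39.6 kb away. It held 6.71 and 9.46 CPM (naive), 59.0 and 36.1 CPM (effector) and 21.2 and 25.1 CPM (memory).

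The kept-open regions all held counts in naive cells, with a median naive mean of 3.79 CPM against 5.7 CPM over all regions. Their median was 3.47 and 3.90 CPM in the naive libraries, 14.6 and 11.4 CPM in the effector libraries and 8.17 and 10.6 CPM in the memory libraries. Over single regions the mean effector level was 1.62 to 15.0 times the naive mean (median 3.18), and the mean memory level 1.52 to 5.88 times (median 2.34). The 3820 regions that opened in effector cells and were not kept had medians of 3.24 and 3.67, then 10.9 and 9.39, then 3.25 and 3.69 CPM, so their memory medians lay at the naive medians. These levels follow from the rule and describe it.

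**Figure D1:**
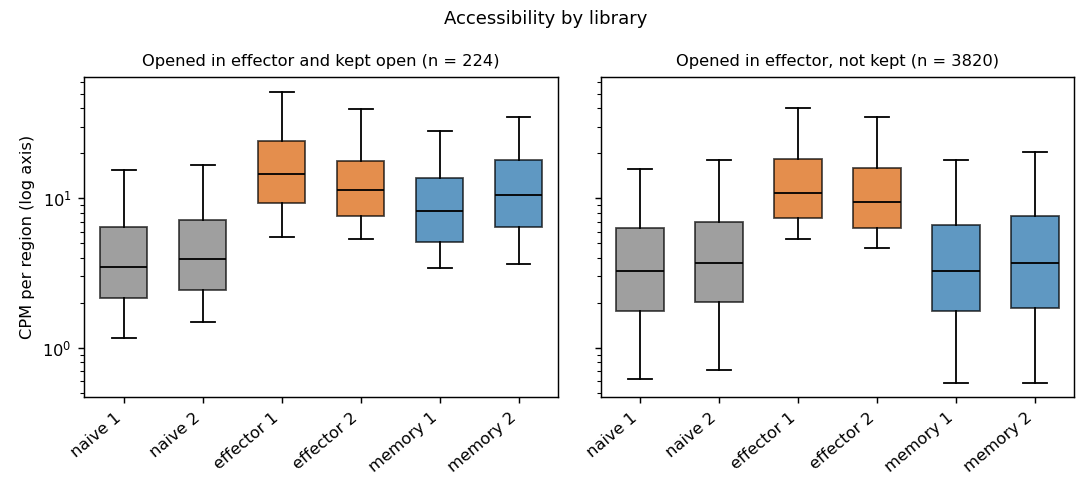
CPM per region (log axis) in each library, for the 224 kept-open regions and for the 3820 regions opened in effector cells and not kept, with boxes from the lower to the upper quartile, a line at the median and whiskers from percentile 5 to percentile 95. In the kept-open set the memory medians (8.17 and 10.6) lie between the naive (3.47 and 3.90) and effector medians (14.6 and 11.4).

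By edgeR's quasi-likelihood test over all 56007 tested regions, 216 kept-open regions (96.4%) were called higher in effector than in naive cells at an adjusted p under 0.05, where 11.5% of all tested regions were. In memory against naive cells 91 (40.6%) were called, where 0.248% of all were, and 88 were called in both. None was called lower than naive, where 4.98% of all tested regions were in effector and 0.0714% in memory cells. Both contrasts chose the regions, so nothing is read from these counts. The memory count was higher in DESeq2 and with the replicate number as a block, as given further below. The memory count rested on few libraries: it was 14 without memory replicate 2, 28 without naive replicate 1 and 57 without naive replicate 2, and 11 regions were called whichever library was left out.

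The limit of 1.5 cut through a continuous range. The kept-open regions closest above it, by the lowest effector or memory library over the higher naive one, were at Rapgef1 (1.5 times), Fancc (1.5022), Agfg1 (1.5051), Cep350 (1.5084) and Gm30534 (1.5088). Just below it came regions at Pparg (1.4961), Ikzf2 (1.4941), Add3 (1.4935), a site on chromosome 12 with no gene within 100 kb (1.4927), and Lnx2 (1.4903). The Pparg region, next to the gene of the nuclear receptor PPARγ used by lung ILC2s in lipid handling, held 1.93 and 2.90 CPM (naive), 21.4 and 17.6 CPM (effector) and 4.34 and 5.05 CPM (memory).

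**Figure D2:**
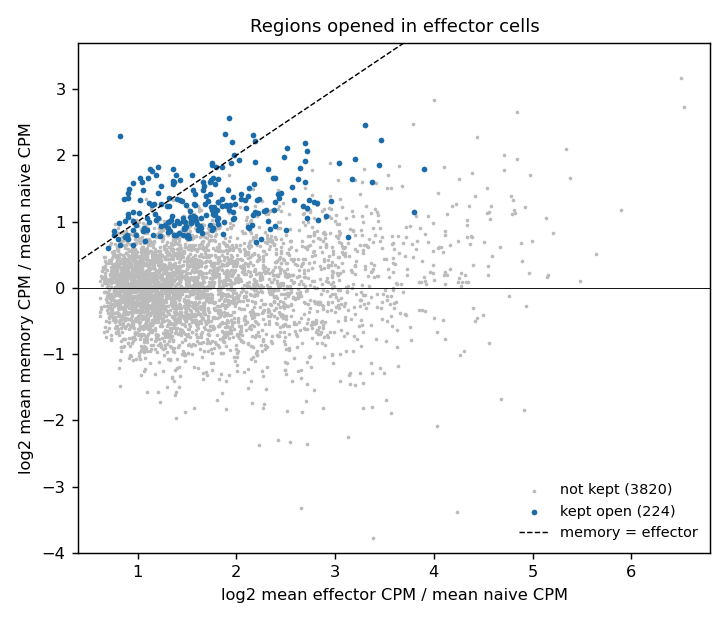
Log2 ratio of mean memory to mean naive CPM (vertical) against log2 ratio of mean effector to mean naive CPM (horizontal) for the 4044 regions opened in effector cells, with the 224 kept-open regions in blue and the other 3820 in grey, and a dashed line where memory equals effector. The grey points centre on a memory ratio of no change (median 1.01-fold) and the blue points lie above it by the rule, 47 of them above the dashed line.

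How much of the opening was kept varied widely within the set. The share of the effector gain still present in memory (memory mean minus naive mean, over effector mean minus naive mean, in CPM) had a median of 58.1%, quartiles of 41.3% and 90.8%, and a range from 9.13% to 510.0%. It was at least 50% in 142 regions and at least 100% in 47, and under 25% in 16. From memory replicate 1 alone the median was 49.1%, and from memory replicate 2 alone it was 69.2%. Among the 3820 regions that were not kept the median was 0.581%, with quartiles of -9.98% and 13.2%.

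The rule did not set memory against effector cells directly, although the same libraries chose the regions and the memory limits bound how far a kept-open region could have fallen. In edgeR's quasi-likelihood test of that contrast 51 of the 224 (22.8%) were called lower in memory, where 13.6% of all tested regions were, and 3 (1.34%) were called higher, where 7.72% were. The other 170 were not called, which does not show that they were equal. The median log2 difference was -0.35, against -0.04 over all tested regions. Of the 3820 opened regions that were not kept, 80.1% were called lower in memory and 0 higher, with a median of -1.39. Both sets were chosen by a high effector level and parted by their memory level, so these shares follow in part from the rule. Both memory libraries lay below both effector libraries in 128 of the 224, where 40.2% of all regions did so, and above both in 15, where 19.1% did so. The count of lower regions was 17 without effector replicate 1 and 31 without memory replicate 1, and 15 regions were called in either direction whichever library was left out. Effector replicate 1 stood above replicate 2 in 188 kept-open regions (83.9%, against 45.1% of tested regions with counts in both). Memory replicate 2 stood above replicate 1 in 186. The reverse order of the memory replicates was found in 17.0% of the kept-open regions, against 43.4% of tested regions with counts in both. The part of these library differences in the counts was not tested.

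**Figure D3:**
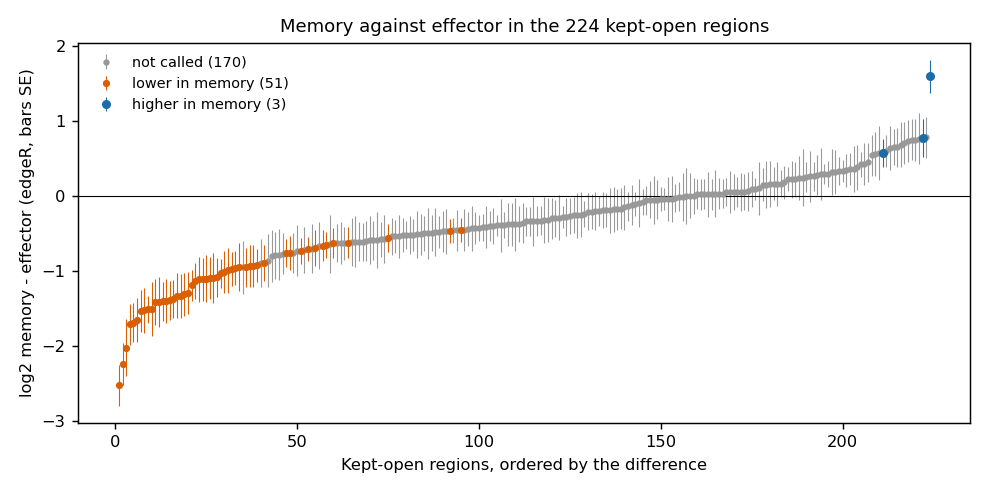
Log2 difference of memory from effector cells (edgeR, bars are SE) in each of the 224 kept-open regions, ordered by the difference. The 51 regions called lower in memory reach down to -2.52 (Vgll4), 170 were not called, and the 3 called higher reach up to 1.59.

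The 5 regions with the smallest p for a fall between effector and memory cells kept a small remainder of the gain. At Vgll4, a transcription cofactor of TEAD proteins, the region chr6:114860862-114861985 held 1.62 and 2.01 CPM in naive, 30.6 and 19.9 CPM in effector and 3.5 and 4.52 CPM in memory libraries. Both memory libraries were far below the effector ones and yet above both naive ones, and 9.35% of the gain was kept (memory against effector, log2 -2.52 ± 0.27 SE, adjusted p = 1.8e-05, edgeR's quasi-likelihood test). At Ngef, a guanine nucleotide exchange factor gene, chr1:87548333-87549747 held 8.25 and 10.5, then 60.6 and 46.0, then 17.1 and 17.4 CPM (log2 -1.51 ± 0.18). Regions at Ttc39c (log2 -2.24 ± 0.28), the amino acid transporter gene Slc36a3 (-1.69 ± 0.26) and Tnip2 (-1.71 ± 0.27), which encodes a partner of the NF-kB inhibitor A20, followed. All 5 were called in every alternative tried for single regions, each left-out library included.

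In 3 regions memory cells stood above effector cells by the same test. The clearest, chr13:83119880-83121264, had no protein-coding gene within 100 kb. The closest start in the start table, 382.8 kb away, is that of Mef2c, a MADS-box transcription factor. This region held 4.55 and 5.56 CPM in naive, 9.28 and 8.54 CPM in effector and 20.7 and 28.8 CPM in memory libraries. The 3 groups were separate and rose in that order, with memory above effector by log2 1.59 ± 0.22 (SE, adjusted p = 0.00011, edgeR's quasi-likelihood test), and the call held in every alternative. A second region without a gene, at chr6:31168746-31170364, was called with less margin (log2 0.57 ± 0.19, adjusted p = 0.0374, edgeR's quasi-likelihood test). It held 10.9 and 11.2, then 23.9 and 17.4, then 28.0 and 28.6 CPM, and the groups did not overlap. That call was lost with total counts alone, with TMM scaling on the most counted regions, and without effector replicate 2 or either memory library. Regions at Zfp362 (log2 0.78 ± 0.27, adjusted p = 0.0518) and Dpys (0.60 ± 0.21, adjusted p = 0.0536), were not called.

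Among genes of type 2 cytokines and ILC2 products, 5 of 129 regions (3.88%) were kept open, at 3 of the 24 genes, where 23 of those regions had opened in effector cells. A pair of regions lay on the same side of Csf2, the GM-CSF gene, 19.2 and 21.8 kb away. The nearer, chr11:54226350-54228079, held 5.01 and 8.46 CPM (naive), 26.8 and 19.5 CPM (effector) and 13.0 and 16.6 CPM (memory), and the other, chr11:54223715-54225508, 10.8 and 11.7, then 38.3 and 25.5, then 19.8 and 18.3 CPM. In both, memory libraries lay between naive and effector libraries, and the second region fell from effector to memory (log2 -0.63 ± 0.20, adjusted p = 0.0336, edgeR's quasi-likelihood test), a call lost in DESeq2 and without effector replicate 1 or either memory library. At Ccl1, the gene of a chemokine that binds CCR8, chr11:82191169-82192615 held 4.86 and 5.74, then 9.75 and 8.72, then 8.67 and 8.94 CPM, so effector and memory libraries overlapped. Regions of the type 2 cytokine genes Il4, Il5 and Il13 were not in the set. None at Il4 or Il5 had opened in effector cells by the rule, and the 1 that had at Il13 was not kept. At Areg, another gene of this list, none had opened either.

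Tnfsf8, which encodes the TNF family ligand CD30L, had 2 kept-open regions. Neither was called between memory and effector cells by edgeR's quasi-likelihood test. The log2 difference was 0.70 (adjusted p = 0.0865) inside the gene and -0.54 (adjusted p = 0.0909) in the other region. Inside the gene, chr4:63853220-63855048 held 2.47 and 3.19 CPM (naive), 5.78 and 4.88 CPM (effector) and 7.17 and 8.74 CPM (memory), with both memory libraries highest. In the stretch between Tnfsf8 and Tnc, chr4:63898333-63900336 held 7.79 and 6.56, then 23.2 and 16.3, then 12.0 and 12.9 CPM, with the memory libraries in the middle. A region at Tnfrsf8, the gene of its receptor CD30, was also kept open and was picked out here after its values were seen (3.24 and 2.84, then 5.98 and 10.2, then 5.92 and 6.07 CPM).

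Across all regions 0.392% were kept open, and 5.54% of those that had opened. Of 160 regions at alarmin, cytokine and costimulatory receptors, 17 had opened and 1 was kept, 28.2 kb from Il1r2, which encodes the decoy receptor for IL-1. That region, chr1:40055557-40056516, held 18.8 and 18.2 CPM (naive), 55.9 and 54.6 CPM (effector) and 35.3 and 42.2 CPM (memory). The groups did not overlap, and 55.2% of the gain was kept (memory against effector, log2 -0.39 ± 0.14, adjusted p = 0.0585, edgeR's quasi-likelihood test). It was called lower in memory with total counts alone and with TMM scaling on the most counted regions. Of 134 regions at residence and migration genes 14 had opened and 1 was kept, inside Itgae, the gene of the CD103 integrin chain that binds E-cadherin. That region held 9.10 and 11.8, then 42.0 and 27.6, then 19.0 and 21.4 CPM. It fell from effector to memory (log2 -0.66 ± 0.20, adjusted p = 0.0285 by edgeR's quasi-likelihood test), a call lost without effector replicate 1 or either memory library. Alcam, an adhesion molecule gene, had 2 kept-open regions. At chr16:52540676-52542332, with 1.54 and 1.48, then 8.2 and 5.43, then 7.42 and 7.43 CPM, the memory and effector libraries overlapped. In the region inside the gene, with 1.93 and 3.43, then 5.45 and 5.55, then 7.25 and 8.94 CPM, both memory libraries were above both effector ones. A region 2.6 kb from the adhesion receptor gene Adgrg7 had overlapping effector and memory libraries, with 1.23 and 1.12, then 4.91 and 5.85, then 4.50 and 6.51 CPM.

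At ILC2 transcription factor genes 4 of 442 regions (0.905%) were kept open, of 44 that had opened. A pair lay beyond Bhlhe40, a basic helix-loop-helix factor that promotes cytokine production in T cells. The farther, 37.4 kb away at chr6:108704355-108705194, held 4.71 and 6.68 CPM (naive), 26.4 and 17.9 CPM (effector) and 23.5 and 28.7 CPM (memory), and the nearer, at 5.1 kb, held 5.17 and 5.20, then 20.8 and 17.2, then 8.84 and 11.8 CPM. The farther region thus had overlapping effector and memory libraries (log2 0.36 ± 0.21, adjusted p = 0.247), while the nearer one fell (log2 -0.76 ± 0.22, adjusted p = 0.0214, edgeR's quasi-likelihood test), a call lost without effector replicate 1 or memory replicate 1. At Nfil3, a basic leucine zipper factor needed for ILC development, memory libraries (18.5 and 21.1 CPM) overlapped effector ones (18.4 and 20.2 CPM) above the naive ones (10.7 and 12.2 CPM). At Irf4, which acts downstream of antigen and cytokine receptors in lymphocytes, the levels were low throughout (1.54 and 2.01, then 6.86 and 5.98, then 3.42 and 5.00 CPM), with the memory libraries in the middle.

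Other regulators of transcription had 1 to 3 kept-open regions each. The AP-1, NF-kB and NFAT list gave 1 of 212 regions, with 19 opened. The kept one lay inside Nfatc2, a calcium-regulated factor. It held 0.926 and 3.08 CPM in naive libraries, 14.7 and 10 CPM in effector and 5.50 and 6.94 CPM in memory. Trps1, a GATA-type repressor, had a region (chr15:50653168-50654822) at 5.09 and 4.55, then 27.4 and 20.9, then 15.0 and 18.6 CPM, where the groups were separate in every library. Etv6, an ETS family repressor, had 3 kept-open regions of 15 that had opened, and the shares of the gain they kept ran from 30.2% to 131.0%. Ncoa2, a nuclear receptor coactivator, carried one of the more open regions, with 19.5 and 22.8, then 44.0 and 35.2, then 42.5 and 48.9 CPM, and there memory and effector libraries overlapped. Of 166 regions at chromatin genes 19 had opened and 2 were kept, both near Tet2, which oxidises methylcytosine. The one with more memory signal had unequal memory libraries (3.5 and 8.11 CPM, over 1.85 and 1.71 in naive and 4.98 and 5.49 CPM in effector libraries).

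Of 336 regions at signalling and survival genes 36 had opened and 5 were kept, all inside Itpr1, the IP3 receptor that releases calcium from the endoplasmic reticulum. The most strongly opened, chr6:108337673-108339144, held 4.55 and 7.10 CPM in naive, 54.6 and 41.3 CPM in effector and 20.3 and 22.7 CPM in memory libraries. It fell from effector to memory (log2 -1.03 ± 0.19, adjusted p = 0.00126, edgeR's quasi-likelihood test) and still stood clear of naive cells. The most open in memory, chr6:108453466-108455546, held 18.3 and 18.3, then 51.8 and 34.1, then 28.1 and 34.9 CPM, with effector and memory libraries overlapping. Rapgef1, an exchange factor for the small GTPase Rap1, had 3 kept-open regions within 18.4 kb, of which chr2:29631642-29632968 held 20.1 and 20.3, then 64.2 and 48.2, then 36.8 and 38.9 CPM. Adap1 also had 3, within 5.8 kb, and chr5:139303221-139304614 held 2.93 and 4.26, then 27.8 and 19.6, then 12.0 and 17.9 CPM. In both of these the memory libraries lay between the naive and the effector ones. By edgeR's quasi-likelihood test the Rapgef1 region was called lower in memory than effector with little margin (log2 -0.45 ± 0.16, adjusted p = 0.0495). That call was lost in several alternatives, RLE size factors and DESeq2 among them. The Adap1 region was not called (log2 -0.54 ± 0.24, adjusted p = 0.114).

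Of 281 regions at memory and quiescence genes 38 had opened and 1 was kept open, inside the anti-apoptotic gene Bcl2, where 6 regions had opened. That region held 4.55 and 4.55 CPM in naive, 20 and 15.8 CPM in effector and 7.92 and 12.3 CPM in memory libraries. It fell from effector to memory with little margin (log2 -0.69 ± 0.24, adjusted p = 0.0483, edgeR's quasi-likelihood test), and the call was lost without either effector library or memory replicate 1, with RLE size factors and in DESeq2. The cell cycle list gave 1 of 91, with 5 opened. The kept region, inside the kinase gene Cdk6, held 4.32 and 3.78, then 15.4 and 11.2, then 8.67 and 11.4 CPM. Its memory and effector libraries overlapped. The counts of 0 that follow stand beside 0.392% of all regions and 5.54% of opened ones, and were not tested. Inhibitory receptors and regulators had 0 kept-open regions of 211, of which 25 had opened, among them 4 at Il10, 3 at Havcr2 and 3 at Ctla4. Neuropeptide, prostaglandin and leukotriene receptor genes had 0 of 133 with 11 opened, and metabolic genes 0 of 140 with 12 opened. Of the lineage factor genes, Gata3 had 2 opened regions, Rora 4 and Bach2 8, and none was kept.

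The highest memory levels in the set were at an intergenic site 19.7 kb from Tnc, the gene of the matrix protein tenascin C. At chr4:63938433-63940096 the libraries held 48.3 and 51.7 CPM (naive), 93.7 and 81.2 CPM (effector) and 91.0 and 106 CPM (memory). Its neighbour chr4:63935185-63936228 held 14.0 and 17.9, then 40.7 and 34.3, then 39.3 and 53.3 CPM. Memory and effector libraries overlapped in both. Lmnb1, the lamin B1 gene, had 3 kept-open regions, of which chr18:56733803-56734454 held 26.5 and 25, then 46.3 and 55.4, then 44.4 and 55.2 CPM. Regions near Dnttip2, Agfg1 and Gypc were also among the 10 with the most memory signal, with memory means of 38.5 ± 3.90, 35.9 ± 6.13 and 34.2 ± 5.85 CPM (SD, n = 2) over naive means of 21.0 ± 0.514, 20.7 ± 0.446 and 14.2 ± 0.427 CPM.

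The regions that cleared the naive level by the widest margin were mostly weak in naive cells. Outside chromosome Y they lay at Adgrg7 (the lowest effector or memory library at 3.65 times the higher naive one), Alcam (3.52), the actin-binding protein gene Ablim3 (3.09), Adap1 (3.08), Fam185a (3.04), Trps1 (2.95), the cleavage stimulation factor gene Cstf3 (2.93) and Itpr1 (2.87). Fam185a held 4.24 and 5.32 CPM in naive, 19.6 and 19.4 CPM in effector and 16.2 and 20.2 CPM in memory libraries. Cstf3 held 1.16 and 2.72, then 25.2 and 17.3, then 10.3 and 7.96 CPM. The first thus kept nearly all of its gain (91.0%) and the second less (37.1%).

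Chromosome Y held 11 regions, and 5 of them were kept open, all assigned to Gm52481 between positions 90738321 and 90813008. At chrY:90738321-90740562 the libraries held 2.24 and 2.07 CPM (naive), 16.4 and 23.2 CPM (effector) and 7.42 and 9.13 CPM (memory), and 4 of the 5 were called lower in memory than in effector cells, each a call lost without at least 1 of the effector or memory libraries. These regions lie at or within the pseudoautosomal region, near-identical copies lie on chromosome X, and the labels describe the mice as female unless otherwise stated. How reads that map to several places were handled is not given in the sources used here, so these 5 are uncertain. Without them the set held 219 regions, a median of 58.2% of the gain was kept, and 47 were called lower in memory than in effector cells.

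The kept-open regions were spread over the genome with some local groups. A gene within 100 kb was assigned to 206 of them, 173 genes in all, of which 21 had 2 or more kept-open regions and 8 had 3 or more (Itpr1, Gm52481, Adap1, Etv6, Lmnb1, Rapgef1, Tnc and Ttc39c). There were 60 within 100 kb of another, in 23 groups, and 164 stood alone at that distance. Chromosome 18 held 16, which was 11.3% of its 141 opened regions, against 5.54% over all chromosomes. The members of a group share their neighbourhood and are not independent of each other.

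The stretch from Tnfsf8 to Tnc held 5 kept-open regions among 9 in 86.9 kb, and in all 9 the mean memory CPM was above the mean naive CPM. In a window of 108.6 kb around it the 8 regions that did not meet the rule were also above naive in mean CPM. Of these, 1 was called in memory against naive cells. That region, chr4:63859158-63861985, held 4.47 and 8.46 CPM (naive), 13.6 and 12.0 CPM (effector) and 14.3 and 18.3 CPM (memory), and the higher naive library kept it out of the set. From Itpr1 to beyond Bhlhe40, a stretch of 441.3 kb, 7 of 52 regions were kept open. There 30 of the other 45 had a mean memory CPM above the mean naive CPM and 2 were called, so the regions of this longer stretch were mixed.

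**Figure D4:**
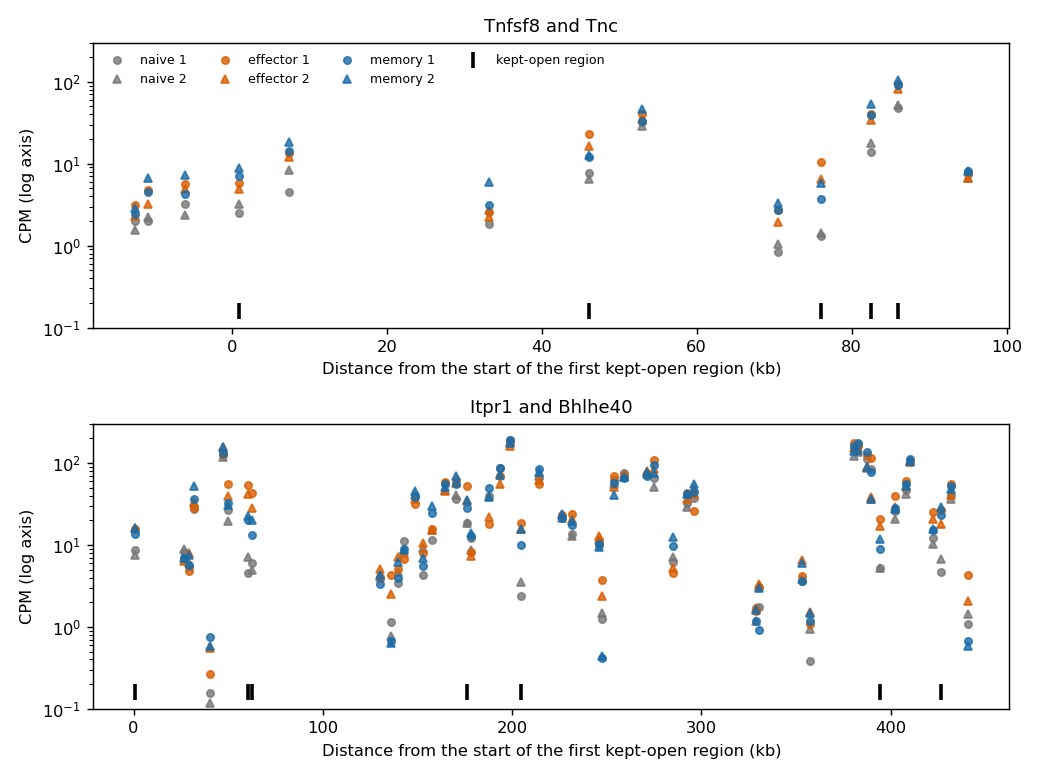
CPM (log axis) of every region in the 6 libraries against distance from the start of the first kept-open region, for the stretches from Tnfsf8 to Tnc and from Itpr1 to Bhlhe40, with circles for replicate 1, triangles for replicate 2 and black ticks under kept-open regions. At Tnfsf8 and Tnc 5 of 13 regions are kept open, and at Itpr1 and Bhlhe40 7 of 52.

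Regions next to kept-open ones were examined because the rule had left them out. Among the 341 tested within 10 kb of a kept-open region, 80.4% had a fitted memory level above naive (median log2 difference 0.31), against 48.8% of all regions outside the set (median -0.01). By edgeR's quasi-likelihood test 8 of them (2.35%) were called higher in memory, where 0.248% of all tested regions and 0.0860% of those outside the set were. At 10 to 50 kb the share above naive was 63.3% of 984 regions and 4 were called (0.407%), and farther away it was 48.3% of 54458 with 36 called (0.0661%). In bins of distance the median log2 difference was 0.35 up to 5 kb, 0.26 from 5 to 10 kb, 0.16 from 10 to 25 kb, 0.08 from 25 to 50 kb and 0.06 from 50 to 100 kb, and then near 0. The count of 8 was 0 without naive replicate 1 or memory replicate 2, 4 without naive replicate 2 and 22 without memory replicate 1, while the share above naive ran from 72.9% to 81.5% over the alternatives. These regions were measured in the same libraries that chose the set, and some missed the rule narrowly.

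**Figure D5:**
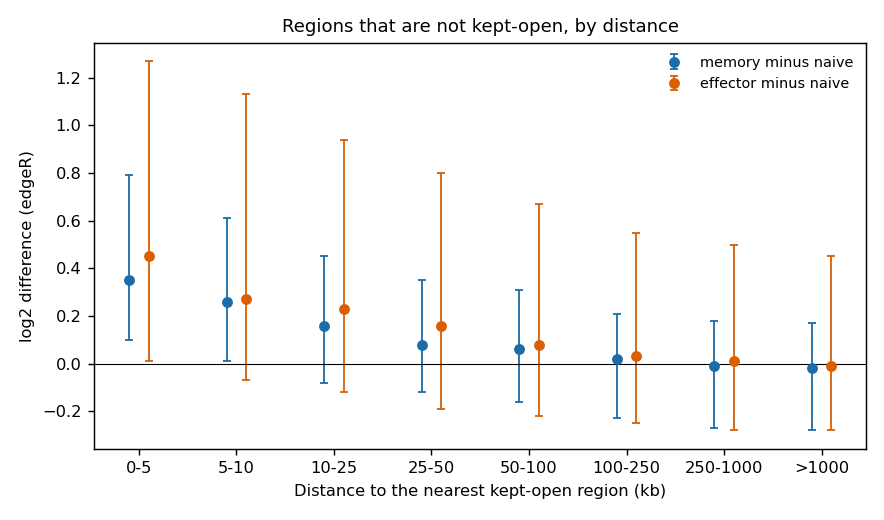
Median log2 difference from naive cells (edgeR, bars from the lower to the upper quartile) for regions outside the kept-open set, in bins of distance to the nearest kept-open region in kb, with memory and effector cells drawn apart. The memory median runs from 0.35 within 5 kb to 0.06 at 50 to 100 kb and lies at or under 0.02 beyond.

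Several neighbours had opened in memory with little or no effector opening. Next to the Rbpj regions, a gene whose product is the DNA-binding partner of Notch, chr5:53509269-53510153 held 11.9 and 17.0 CPM in naive, 13.9 and 18.7 CPM in effector and 26.7 and 45.6 CPM in memory libraries. Naive and effector libraries overlapped there and both memory libraries stood above them (memory against naive, log2 1.35 ± 0.24, adjusted p = 0.0271, edgeR's quasi-likelihood test). The region in Sncaip at chr18:52865962-52867614 was alike, with 25 and 24.4, then 27.4 and 23.6, then 44.8 and 43.2 CPM, and the one in Aopep held 9.02 and 9.34, then 13.1 and 9.27, then 17.8 and 28.0 CPM. At the other 2 of the 5 with the smallest adjusted p, in Itpr1 (36.1 and 40.7, then 62.3 and 56.8, then 56.2 and 69.5 CPM) and at a chromosome 14 site with no gene within 100 kb (20.5 and 23.2, then 38.3 and 33.7, then 37.4 and 40.4 CPM), effector libraries were high as well. Among neighbours that had opened in effector cells, 88.1% of 59 were above naive in memory (median log2 0.55) and 0 were called by edgeR's quasi-likelihood test, with 28 at an unadjusted p under 0.05. Among opened regions more than 50 kb away the share was 52.6% of 3656 (median 0.03).

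In position the set resembled the other regions that opened in effector cells more than it resembled all regions. Of the kept-open regions 4.91% lay at a gene end (within 1 kb of either end of a protein-coding gene), 54.9% inside a gene, 32.1% between genes and 8.04% more than 100 kb from any. The opened regions that were not kept had 7.15%, 54.4%, 32.2% and 6.31%, and all regions had 24.3%, 43.0%, 27.3% and 5.38%. The median distance to a start in the start table was 32.9 kb in the set, 33.1 kb in the opened regions that were not kept and 21.3 kb in all. That table lacks some genes (17492 of 21900 are in it), so a nearer start can be missed. Kept-open regions had a median width of 1372 bp, against 1207 and 1203 bp. These shares carry no test, since regions that adjoin share their neighbourhood.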

How the data were processed

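ATAC-seq was run on 6 libraries, 2 for each of 3 groups. The deposited table gives raw counts for 57203 regions shared by all libraries on mm10, used as deposited. The submitters' processing notes name edgeR 3.34.0, MACS2, deepTools 3.5.4, Bowtie2 2.5.3, ChIPseeker 1.28.3, fastp and bedtools 2.31.1, with no order. Not given in the sources used here are how regions were merged, what was counted, how duplicate and multiply mapped reads were treated, and whether the first base of a chromosome is numbered 0 or 1. Coordinates are printed as deposited.

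Totals ran from 11995095 to 20591102 counts. CPM was computed from the column sums. In R 4.3.3, edgeR 4.0.16 with limma 3.58.1 was run on all regions that passed filterByExpr (56007), with TMM scaling, 1 term per group and robust quasi-likelihood F tests, two-sided. Calls had a Benjamini-Hochberg adjusted p under 0.05 over all tested regions. SE is the log2 difference divided by the square root of F. The fit was tested on simulated counts. Libraries come from separate pools by the labels, and p-values measure the spread between 2 pools per group.

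Regions were assigned to the nearest protein-coding gene of GRCm38.p6 within 100 kb, which need not be the gene they act on. Promoter sequences came from RefSeq. The planned central sequences of distal regions were not used here, so all 6 genes with a covered start are shown. Members and gene lists were chosen with earlier results of these data known. Named regions are the 10 with the highest memory CPM, the 10 with the widest margin over naive, the 5 strongest on each side of the memory against effector test, genes with 3 or more, up to 3 per list, those at the limit of the rule, and the 5 strongest neighbours. A few items that this rule names are not reported here. Alternatives were other scalings (RLE size factors, total counts alone, TMM on the most counted 20% of regions), no filter, DESeq2 1.42.0, the 2 groups alone, replicate number as a block, 1 library left out at a time, other limits and, chosen after seeing the data, the set without chromosome Y.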

Additional observations from a re-analysis of the deposited data

How the results depend on the processing

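The size of the set depended on its limits and on single libraries. It held 566 regions at a looser fold limit and 52 at a limit of 2, 726 with no CPM minimum, 126 with both minimums doubled and 697 by group means, and 229 to 750 with 1 library left out. With TMM-scaled CPM it held 236, of which 203 were among the 224, and with TMM on the most counted 20% of regions 226, of which 206 were. That last scaling moved the median of all regions by 0.19 (effector against naive), -0.24 (memory against effector) and -0.05 (memory against naive) on the log2 scale. The median share of the gain kept was 66.1% and 50.6% under these scalings and 49.1% to 69.5% with 1 library left out.

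Calls in memory against naive numbered 146 in DESeq2, 30 at an adjusted p under 0.01 and 14 to 112 with 1 library left out. Calls lower in memory than effector numbered 89 with TMM on the highest regions, 29 at an adjusted p under 0.01, 30 at 2-fold or more and 17 to 54 with 1 library left out. Calls higher in memory numbered 7 with RLE factors, 6 with the 2 groups alone, 1 each with total counts alone, with TMM on the highest regions, at an adjusted p under 0.01 and at 2-fold or more, and 1 to 10 with 1 library left out. Neighbours called numbered 5 with TMM on the highest regions, 4 within 5 kb and 0 to 22 with 1 library left out. The share at gene ends was 12.9% within 3 kb. The cause of these differences was not tested beyond the construction of each alternative.

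The labels do not say that replicate numbers pair the libraries, and there are 2 numbers, too few to settle it from the data, so no pairing was assumed, although the deviations of same-numbered libraries correlated over regions (r from 0.188 to 0.271). With the replicate number as a block the calls among the kept-open regions were 224 (effector against naive), 200 (memory against naive), 73 (memory below effector) and 15 (memory above effector), and the Il1r2 region was called lower in memory than effector. Of 45 named regions no called direction reversed, 8 lost a call and 12 gained one in at least 1 alternative. With 2 pools per group and 11995095 to 20591102 counts, a difference that was not called may lie under what this design can detect.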

Other observations

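There were 181 regions above naive in both memory libraries by the same fold and CPM minimum that did not meet the effector part of the rule, beside the 224 that did. With no CPM minimum, 96 regions were lower than naive by 1.5 times in all 4 effector and memory libraries.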
